A study of Mus musculus with 6 samples.

Results

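The small leucine-rich proteoglycans are secreted matrix proteins with a short core of leucine-rich repeats, most of which carry glycosaminoglycan chains. The 10 genes described here are Dcn, Bgn, Aspn, Lum, Kera, Fmod, Prelp, Omd, Epyc and Ogn, a list of the family that takes in the chromosome 10 neighbours of Dcn. They are 10 of 30702 genes measured, and each had 1 probe set carrying only its symbol. The family was selected on the knockout and wildtype values of these same arrays, in which Dcn was already known to differ. The differences between the lines are therefore a description for these members and carry no test.

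The arrays measured cultured mouse podocytes, the epithelial cells that wrap the capillaries of the kidney glomerulus. One line was a knockout of Nck1 and Nck2, which encode adaptors that link phosphorylated receptors to actin, and the other was wildtype. Both lines were conditionally immortalized and had spent 10 days differentiating on a type I collagen coat when total RNA was taken, with 3 replicates a line. Each genotype is thus taken here as 1 line. Neither the method of deletion, the number of clones nor the animals' sex or age was given in the sources used here. Values are log2 intensities, on which a difference of 1 is a doubling of signal, and differences are knockout minus wildtype.

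Nck1 was at 8.13, 8.17 and 8.06 in knockout arrays, against 8.54, 8.74 and 8.62 in wildtype arrays (limma adjusted p = 0.00391), and Nck2 averaged 7.24 ± 0.04 in knockout and 7.48 ± 0.13 in wildtype arrays (SD, n = 3 each, limma adjusted p = 0.0941). Both Nck2 means were below the mean of the array's highest background probe set, 7.78, so expression or loss of Nck2 cannot be read from them. Where the deletions lie relative to these probes was not given. The lines also differed in sex chromosome transcripts: Xist, made from the inactive X chromosome, averaged 6.01 in knockout and 12.19 in wildtype arrays, and the Y-linked Uty 9.90 in knockout and 5.21 in wildtype arrays. Genotype, line and sex chromosome content cannot be told apart here. Correlations across genes were 0.993 to 0.997 between arrays of a line and 0.978 to 0.985 between lines. The number of arrays limits the precision, and p-values measure the spread between arrays of 1 line, which may be technical.

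Proteoglycans of this family bind collagen fibrils and regulate their diameter and spacing. Decorin, biglycan and asporin form class I, in which decorin and biglycan carry chondroitin or dermatan sulfate chains. Lumican, keratocan, fibromodulin, Prelp and osteomodulin form class II, where keratan sulfate is the usual chain, and epiphycan and osteoglycin belong to class III. Decorin and biglycan also bind TGF-beta and cell surface receptors, and both accumulate in scarring kidney.

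The 250 bases upstream of annotated starts came from RefSeq (GRCm38.p6), whose table matched 8 of the 10 members. The windows of Prelp, Bgn and Ogn are shown because these members lay above the array's background in at least 1 line. Dcn, which also did, and Lum have no window in the table. Capitals mark matches, on either strand, to 5 motifs: TATAAA, the GC box GGGCGG, the AP-1 motif TGANTCA, the TEAD motif GGAATG and the CArG box of serum response factor. The Prelp window ends at an internal start of a gene with several annotated transcripts.
Prelp, chr1:133921402-133921651, minus strand: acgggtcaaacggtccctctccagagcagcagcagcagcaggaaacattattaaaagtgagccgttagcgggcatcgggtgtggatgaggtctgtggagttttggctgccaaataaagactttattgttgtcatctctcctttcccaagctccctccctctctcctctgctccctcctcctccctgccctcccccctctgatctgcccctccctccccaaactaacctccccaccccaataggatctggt
Bgn, chrX:73483351-73483600, plus strand: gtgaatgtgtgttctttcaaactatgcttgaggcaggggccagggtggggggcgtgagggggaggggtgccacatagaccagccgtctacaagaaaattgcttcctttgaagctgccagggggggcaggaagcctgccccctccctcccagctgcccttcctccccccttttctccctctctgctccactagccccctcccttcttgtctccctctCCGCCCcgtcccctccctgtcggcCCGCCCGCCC
Ogn, chr13:49607765-49608014, plus strand: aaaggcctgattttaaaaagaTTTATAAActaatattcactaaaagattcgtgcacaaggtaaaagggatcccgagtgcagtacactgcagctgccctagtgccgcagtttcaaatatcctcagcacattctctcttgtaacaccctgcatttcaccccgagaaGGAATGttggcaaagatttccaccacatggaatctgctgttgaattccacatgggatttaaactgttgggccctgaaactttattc

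The Prelp window held none of the 5 motifs. The Bgn window had 3 reverse-strand matches to the GC box, at 34 to 29, 10 to 5 and 6 to 1 bases before the start, of which the last 2 overlap. The Ogn window had a TEAD motif at 86 to 81 bases before the start and 2 overlapping matches to TATAAA, at 229 to 224 on the reverse strand and at 227 to 222. Of the 32851 windows of this length in the table, 12.4% held TATAAA, 32.7% the GC box, 6.75% the AP-1 motif, 12.6% the TEAD motif and 1.47% the CArG box. A match describes letters only.

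Decorin differed most between the lines and Prelp next, both higher in knockout. Biglycan was higher by less than 1, and osteoglycin was lower in knockout while bright in both lines. The array's 23 background probe sets had means of up to 7.78, and a gene mean no higher than that counts here as within background. Probes differ in their own background, so such a gene may still be expressed. Both line means of Lum, Kera, Fmod, Omd, Epyc and Aspn were within background, as was the wildtype mean of Dcn and of Prelp. Ogn exceeded it in both lines, as did Bgn, whose wildtype mean lay only 0.02 above it. The groups of 3 arrays did not overlap for 7 of the 10 members, 5 higher and 2 lower in knockout, and for 27.4% of all genes. By limma with Benjamini-Hochberg adjustment over all genes, 3 members were higher and 1 was lower at an adjusted p under 0.05, where 5.05% of all genes were higher and 6.90% lower, 12.0% together. Nothing is read from the members' counts, since the contrast chose them. The median difference was 0.16 over the members and 0.01 over all genes. In whole cultures, fewer cells of a type and less RNA per cell cannot be told apart.

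**Figure D1:**
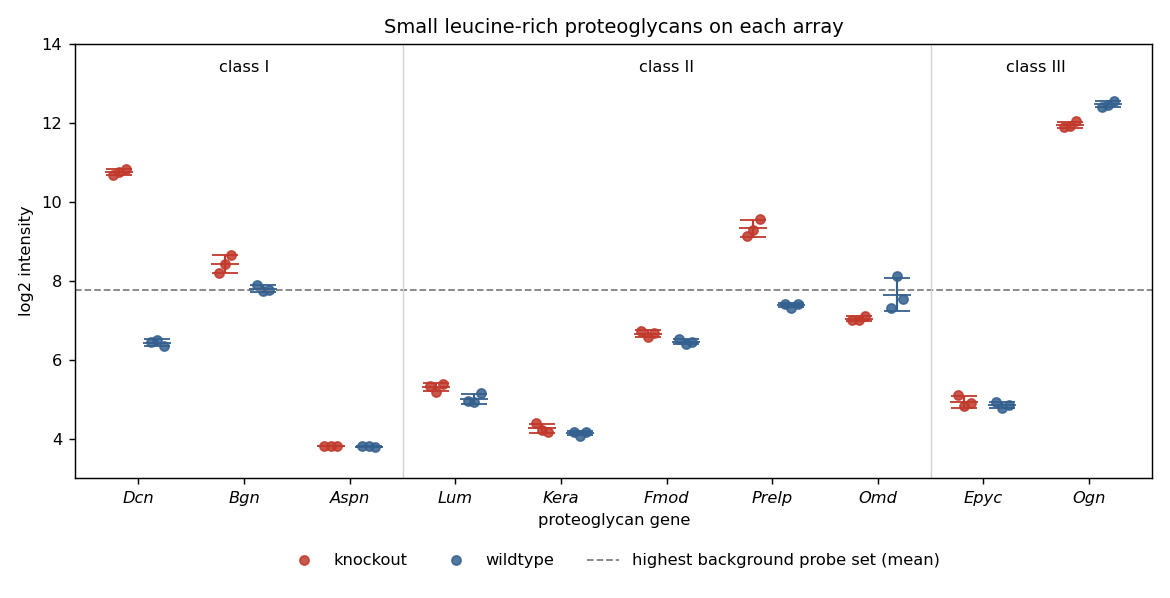
Log2 intensity of the 10 proteoglycan genes (x axis, by class) on each array, knockout left of wildtype; points are arrays, bars the mean and SD of 3 arrays, and the dashed line the highest background probe set, 7.78. Dcn and Prelp lie above the line in knockout arrays only, and Ogn lies far above it in both lines.

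Decorin, the class I proteoglycan that binds type I collagen fibrils and TGF-beta (probe set TC1000001189.mm.1, chromosome 10), was at 10.68, 10.75 and 10.84 in knockout arrays, against 6.44, 6.50 and 6.34 in wildtype arrays. Every knockout array lay at least 4.18 above every wildtype array, far beyond the spread within a line. The means were 10.76 ± 0.08 in knockout and 6.43 ± 0.08 in wildtype arrays (SD, n = 3 each), a difference of 4.33 (SE 0.07) or 20.1-fold in intensity, rank 6 from the top of all genes. The knockout mean exceeded the highest background probe set by 2.98. Because the wildtype mean was within background, the fold rests on a wildtype signal not told apart from background. With any 1 array left out the difference was between 4.29 and 4.37.

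Biglycan, the closest relative of decorin and a ligand of Toll-like receptors once freed from matrix (probe set TC0X00000685.mm.1, chromosome X), was at 8.197, 8.41 and 8.64 in knockout arrays, against 7.89, 7.73 and 7.77 in wildtype arrays. The groups did not overlap, with 0.31 between the nearest arrays, and the knockout arrays were spread more widely. The difference was 0.62 (SE 0.12), 1.54-fold in intensity, and was between 0.51 and 0.73 with any 1 array left out. The wildtype mean was only 0.02 above the highest background probe set, so the fold rests on a wildtype signal near background. Biglycan is no longer among the members past the threshold without knockout replicate 2 (0.62) or without wildtype replicate 1 (0.66), 2 (0.59) or 3 (0.61). Bgn is X-linked, and over 449 X-linked genes whose mean of 6 arrays exceeded background the median difference was -0.07, against -0.01 over 10931 autosomal genes. With the chromosome's median taken off, a setting chosen after seeing the data, the Bgn difference was 0.69. The part of the unequal sex chromosomes in it was not tested.

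Asporin, named for a run of aspartates near its start (chromosome 13), was at 3.80, 3.80 and 3.80 in knockout arrays, against 3.80, 3.80 and 3.78 in wildtype arrays. Its 3 knockout values were identical, which the median polish of the RMA summary can produce and which understates their spread. The probe set was near the bottom of the scale in both lines, with a difference of 0.01 (SE 0.04).

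In class II, Prelp, whose arginine- and proline-rich end binds heparin and the basement membrane proteoglycan perlecan (probe set TC0100003099.mm.1, chromosome 1), was at 9.13, 9.27 and 9.57 in knockout arrays, against 7.42, 7.32 and 7.42 in wildtype arrays. Every knockout array lay at least 1.71 above every wildtype array, and knockout array 3 was the highest. The difference was 1.94 (SE 0.11), 3.83-fold in intensity and rank 86 from the top of all genes. The knockout mean was 1.55 and the wildtype mean -0.39 relative to the highest background probe set, so this fold and rank also rest on a wildtype signal not told apart from background. With any 1 array left out the difference was between 1.82 and 2.04.

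Lumican, which organises collagen in cornea and skin (chromosome 10), was at 5.34, 5.19 and 5.39 in knockout arrays, against 4.96, 4.91 and 5.15 in wildtype arrays. The groups were only 0.04 apart, with a difference of 0.30 (SE 0.08). Fibromodulin, which binds collagen in tendon and cartilage (chromosome 1), was at 6.73, 6.57 and 6.68 in knockout arrays, against 6.52, 6.40 and 6.44 in wildtype arrays. Its groups were 0.05 apart, with a difference of 0.21 (SE 0.06). Keratocan, known from the cornea (chromosome 10), was at 4.38, 4.22 and 4.17 in knockout arrays, against 4.17, 4.07 and 4.17 in wildtype arrays. Its groups touched, 1 knockout array having the same value as 2 wildtype arrays, and the difference was 0.12 (SE 0.07), or between 0.06 and 0.16 with any 1 array left out.

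Values this low shifted a little between arrays. Over the 18825 genes with both line means within background, the median difference was 0.02, and the 5th and 95th percentiles were -0.18 and 0.24. Over those genes wildtype array 2 deviated from the gene mean by a median of -0.09 and wildtype array 1 by 0.07. Wildtype array 2 was the lowest wildtype array for 6 of the 10 members, Lum, Kera and Fmod among them. Without it the Lum difference was 0.25 and the Fmod difference 0.18.

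Osteomodulin, a keratan sulfate proteoglycan of bone (chromosome 13), was at 7.02, 7.002 and 7.11 in knockout arrays, against 7.30, 8.11 and 7.53 in wildtype arrays. The groups did not overlap, but wildtype array 2 stood apart from the other wildtype arrays. The difference was -0.61 (SE 0.20), and -0.38 without wildtype replicate 2.

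In class III, osteoglycin, also called mimecan (probe set TC1300000569.mm.1, chromosome 13), was at 11.88, 11.93 and 12.04 in knockout arrays, against 12.41, 12.44 and 12.56 in wildtype arrays. The nearest arrays of the groups were 0.38 apart, and the line means exceeded the highest background probe set by 4.18 in knockout and 4.70 in wildtype arrays. The difference was -0.52 (SE 0.06), knockout intensity being 0.697 of wildtype, and was between -0.56 and -0.48 with any 1 array left out. Epiphycan, a proteoglycan of growth cartilage (chromosome 10), was at 5.10, 4.81 and 4.89 in knockout arrays, against 4.92, 4.76 and 4.86 in wildtype arrays. Its groups overlapped, with a difference of 0.09 (SE 0.09) that was 0.005 without knockout replicate 1 and 0.05 without wildtype replicate 2.

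The members sit in gene clusters, and the differences of neighbouring members varied in size. Dcn, Lum, Kera and Epyc follow each other on chromosome 10 with no other measured protein-coding gene between them, at differences of 4.33, 0.30, 0.12 and 0.09. Among the 4 measured protein-coding genes on either side, Ube2n, a ubiquitin-conjugating enzyme gene, rose by 0.29 (limma adjusted p = 0.0273) and Nudt4, a Nudix hydrolase gene, by 0.34 (limma adjusted p = 0.0449). Ube2n lost its call without any 1 of the 6 arrays (adjusted p = 0.0524 to 0.0826), and Nudt4 without any but knockout replicate 3 (adjusted p = 0.123 to 0.147). The genes next to the cluster, Btg1 beside Dcn and Ccer1 beside Epyc, differed by -0.40 and 0.09 and missed the threshold (limma adjusted p = 0.0655 and 0.787). Btg1 passed as lower with a replicate block (adjusted p = 0.0349), a second quantile normalization (0.0447) and a filter on dim genes (0.0337).

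On chromosome 13, Aspn, Omd and Ogn are adjacent, at 0.01, -0.61 and -0.52, and the 8 genes around them had differences from -0.08 to 0.14. Prelp and Fmod are adjacent on chromosome 1, at 1.94 and 0.21, and Optc, which encodes the proteoglycan opticin, lies on the other side of Prelp at 0.25 (limma adjusted p = 0.252). No gene around either of these clusters passed. Among the 8 genes around Bgn, Dusp9, a phosphatase gene within background in both lines, rose by 0.22 (limma adjusted p = 0.0342), a call lost without any array but wildtype replicate 1 (adjusted p = 0.0621 to 0.135). Of all 32 flanking genes, 3 rose and 0 fell, the settings under which Btg1 passed aside, where 5.05% of all genes were higher and 6.90% lower.

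**Figure D2:**
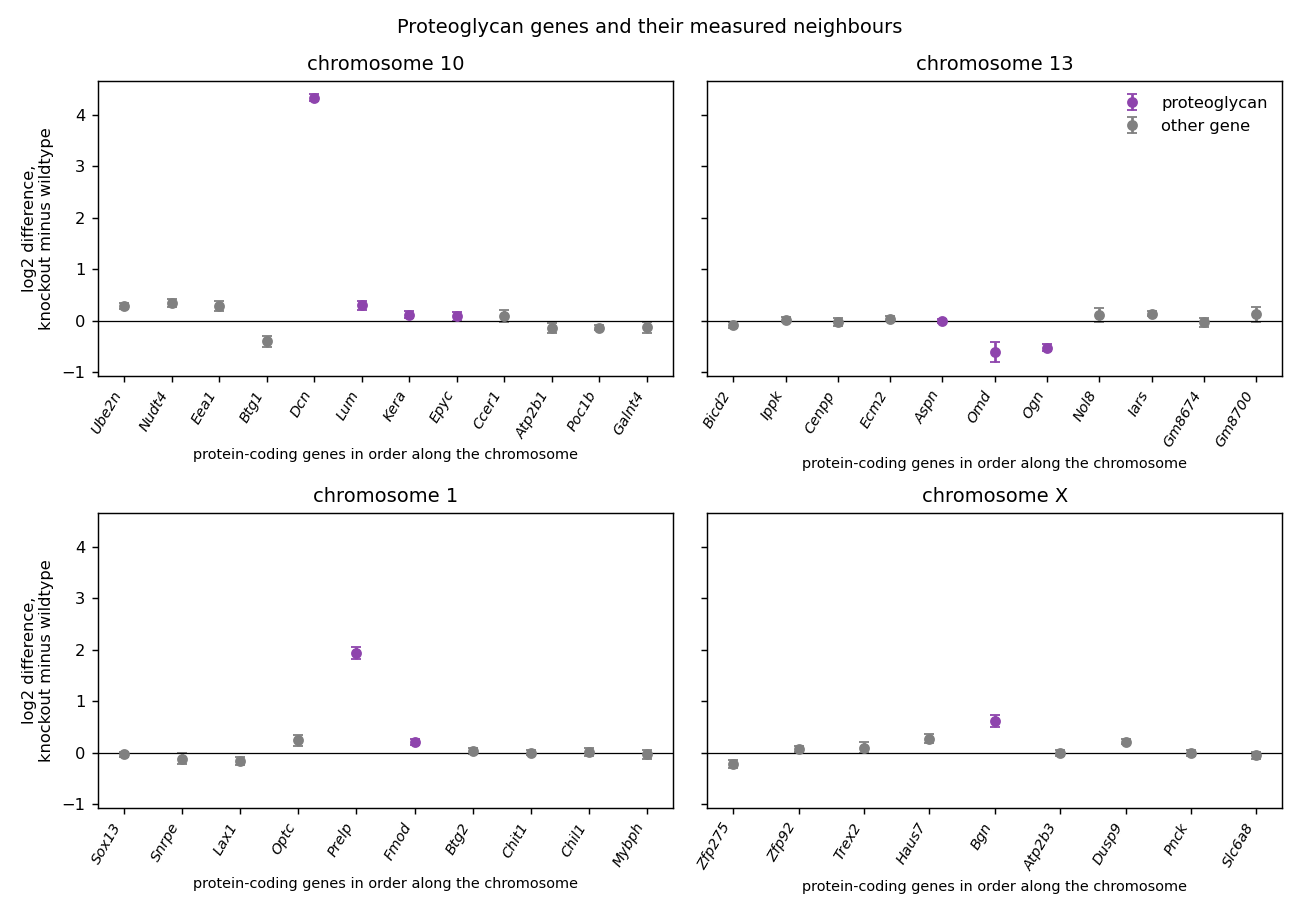
Log2 difference, knockout minus wildtype, with its limma standard error, for the proteoglycan genes (purple) and the 4 measured protein-coding genes on each side, in their order along 4 chromosomes. Dcn and Prelp stand at 4.33 and 1.94, and the flanking genes lie between -0.40 and 0.34.

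For Dcn and Prelp, the members at least 1 apart between lines, the genes with the most similar pattern were found by the root mean square distance between values centred on each gene's mean over 6 arrays. Nearest to Dcn were Pdgfd, a platelet-derived growth factor gene (0.15), the receptor phosphatase gene Ptprb (0.15), the inflammatory protease gene Casp1 (0.18), the stromelysin gene Mmp10 (0.22) and the adrenomedullin gene Adm (0.22). Their differences were between 4.11 for Ptprb and 4.73 for Mmp10. Nearest to Prelp were Clec2e, a lectin-like gene (0.08), the myosin light chain gene Myl9 (0.09), the adhesion gene Ceacam1 (0.11), the pseudogene Gm5864 (0.11) and Prune2 (0.11). Knockout array 3 was the highest knockout array for Prelp and these 5 genes, as for 6 of the 10 members. The gap between the lines dominates this distance.

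**Figure D3:**
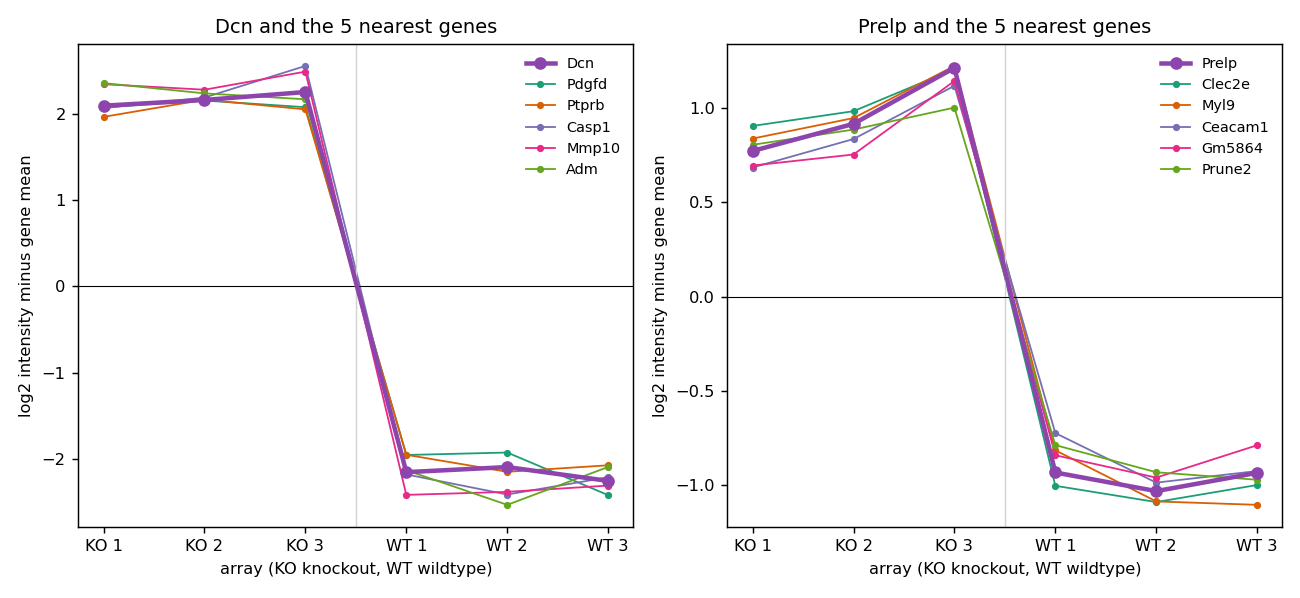
Log2 intensity minus the gene's mean over 6 arrays (y axis) on each array (x axis, knockout then wildtype) for Dcn, Prelp and the 5 genes nearest to each. The largest distance is 0.22 from Dcn and 0.11 from Prelp.

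Chains of decorin and biglycan are built on a linker, then extended, epimerized and sulfated. Of 15 measured chondroitin and dermatan sulfate enzymes, 5 rose and 1 fell, while 9 missed the threshold, with a median difference of 0.01. Beside this and the list counts below, 5.05% of all genes were higher and 6.90% lower. Calls were commoner among brighter genes: 23.2% of autosomal genes above background passed, against 3.78% of genes within background in both lines. Dse, the epimerase that makes dermatan sulfate, was at 9.78, 9.90 and 9.70 in knockout arrays, against 8.37, 8.74 and 8.42 in wildtype arrays (difference 1.28, SE 0.11, limma adjusted p = 0.000804). Chst11, a chondroitin 4-O-sulfotransferase gene, was at 9.85, 9.92 and 10.05 in knockout arrays, against 8.62, 8.83 and 8.56 in wildtype arrays (difference 1.27, SE 0.09, limma adjusted p = 0.000399). For both genes every knockout array was above every wildtype array. The polymerase gene Chsy1 rose by 0.40, the uronyl sulfotransferase gene Ust by 0.33 and Csgalnact1, which starts the chain, by 0.25, while the dermatan 4-O-sulfotransferase gene Chst14 fell by 0.25; the last pair were named after their values were seen. Csgalnact1 was within background in both lines, and Ust in wildtype. Of the 6 calls, 3 were made without knockout replicate 1 or 2 and 2 without wildtype replicate 3. The adjusted p of the lost calls was 0.061 to 0.14 for Chst14, 0.0586 to 0.0783 for Csgalnact1, 0.056 to 0.0648 for Chsy1 and 0.0531 for Ust.

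Of 7 measured linker enzymes, 0 rose and 2 fell, while 5 missed the threshold, and 3 had an unadjusted p under 0.05 by limma. Fam20b, the kinase that phosphorylates the linker xylose, was at 9.24, 9.23 and 9.16 in knockout arrays, against 9.71, 9.87 and 9.65 in wildtype arrays, without overlap (difference -0.53, SE 0.07, limma adjusted p = 0.00391). Xylt2, a xylosyltransferase gene that starts the linker, fell by 0.30, with 3 identical knockout values, and its call was lost without knockout replicate 1 or 2 (adjusted p = 0.056 to 0.0582), which leaves 1 call. Of 7 measured keratan sulfate enzymes, 1 rose and 1 fell, while 5 missed the threshold. The sulfotransferase gene Chst2 rose by 0.73 (SE 0.12), and the galactosyltransferase gene B4galt4 fell by 0.57 (SE 0.07). The Chst2 call was lost without knockout replicate 2 or 3 or wildtype replicate 3 (adjusted p = 0.0516 to 0.0619), which leaves 1 call. Medians were -0.04 for the linker and -0.01 for the keratan sulfate enzymes.

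Of 8 other matrix proteins with leucine-rich repeats, 0 rose and 1 fell, while 7 missed the threshold, and 1 had an unadjusted p under 0.05 by limma. Podn, which encodes podocan, a protein of sclerotic glomeruli, was at 7.98, 8.07 and 8.07 in knockout arrays, against 8.495, 8.58 and 8.42 in wildtype arrays (difference -0.46, SE 0.06, limma adjusted p = 0.00407). The other 7 were within background in both lines.

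Core proteins of other proteoglycan families moved in both directions: of 26, 4 rose and 6 fell, while 16 missed the threshold, and 12 were within background in both lines. Vcan, which encodes versican, a large chondroitin sulfate proteoglycan, was at 8.94, 9.002 and 8.92 in knockout arrays, against 6.87, 6.95 and 6.91 in wildtype arrays, without overlap and with its wildtype mean within background (difference 2.04, SE 0.05, limma adjusted p = 6.72e-06). Also higher, and named after their values were seen, were the hyaluronan receptor gene Cd44 (0.60), the basement membrane gene Agrn (0.57) and the syndecan gene Sdc3 (0.32). The glypican genes Gpc4 and Gpc6, for cell surface heparan sulfate proteoglycans, fell, at -1.05 (SE 0.05) and -1.02 (SE 0.06), as did Col18a1, a basement membrane collagen with heparan sulfate, at -0.74 (SE 0.07). Named after their values were seen, Sdc2 (-0.55), the perlecan gene Hspg2 (-0.57) and Gpc1 (-0.24) fell too. Sdc2 had 3 identical knockout values, which understates their spread. Hspg2 lost its call without knockout replicate 1 or wildtype replicate 1 or 2 (adjusted p = 0.0522 to 0.0609), and Gpc1 without any but wildtype replicate 2 (adjusted p = 0.0579 to 0.108).

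Of 16 collagens and other matrix partners, 7 rose and 1 fell, while 8 missed the threshold, with a median of 0.10. Among all genes, 12.0% passed. Col6a1, named after its value was seen, rose by 0.40 and lost its call without any 1 of the 6 arrays (adjusted p = 0.0536 to 0.177). The fibrillar collagen genes Col5a2 and Col1a1 rose by 3.79 (SE 0.09) and 3.03 (SE 0.08), the wildtype mean of Col5a2 being within background, and Col12a1, whose product coats type I collagen fibrils, by 1.42 (SE 0.07). Col1a2 and Col3a1 were within background in both lines, at 0.09 and 0.04. The fibronectin gene Fn1 fell by 0.57 (SE 0.05).

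Of 16 receptors and growth factors that decorin or biglycan bind, 6 rose and 2 fell, while 8 missed the threshold, with a median of 0.07. Lrp1, the endocytic receptor that takes up decorin, was at 10.49, 10.40 and 10.59 in knockout arrays, against 8.87, 8.99 and 8.77 in wildtype arrays (difference 1.62, SE 0.08, limma adjusted p = 8.15e-05). The receptor gene Pdgfrb rose by 2.36 (SE 0.08), its wildtype mean being within background, the matricellular gene Ccn2 by 1.31 (SE 0.08) and the TGF-beta ligand gene Tgfb2 by 1.23 (SE 0.11). Named after their values were seen, Met, a receptor of decorin, and Cd14, a co-receptor of biglycan, fell, at -0.62 (SE 0.07) and -0.73 (SE 0.10). Tlr2 and Tlr4, through which soluble biglycan signals, differed by -0.17 and 0.07 and missed the threshold.

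Of 14 proteases of these proteoglycans and their enhancers, 5 rose and 4 fell, while 5 missed the threshold, with a median of -0.04. The serine protease gene Htra1 rose by 1.54 (SE 0.10), the aggrecanase gene Adamts5 by 1.42 (SE 0.07) and the collagenase gene Mmp13, within background in both lines, by 1.31 (SE 0.07). The gelatinase gene Mmp2 fell by 1.01 (SE 0.06). Pcolce, named after its value was seen, encodes an enhancer of procollagen cleavage and not a protease, and fell by 0.70 (SE 0.08). Also named after their values were seen, Tll1 (-0.25) and Pcolce2 (-0.18) lost their calls without any 1 of the 6 arrays (adjusted p = 0.055 to 0.155). Mmp3 (0.42), named likewise, lost its call without any knockout replicate or wildtype replicate 1 (adjusted p = 0.0597 to 0.111). Tll1 and Mmp3 were within background in both lines. Bmp1, which trims the propeptide of biglycan, differed by -0.27 (limma adjusted p = 0.0544).

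**Figure D4:**
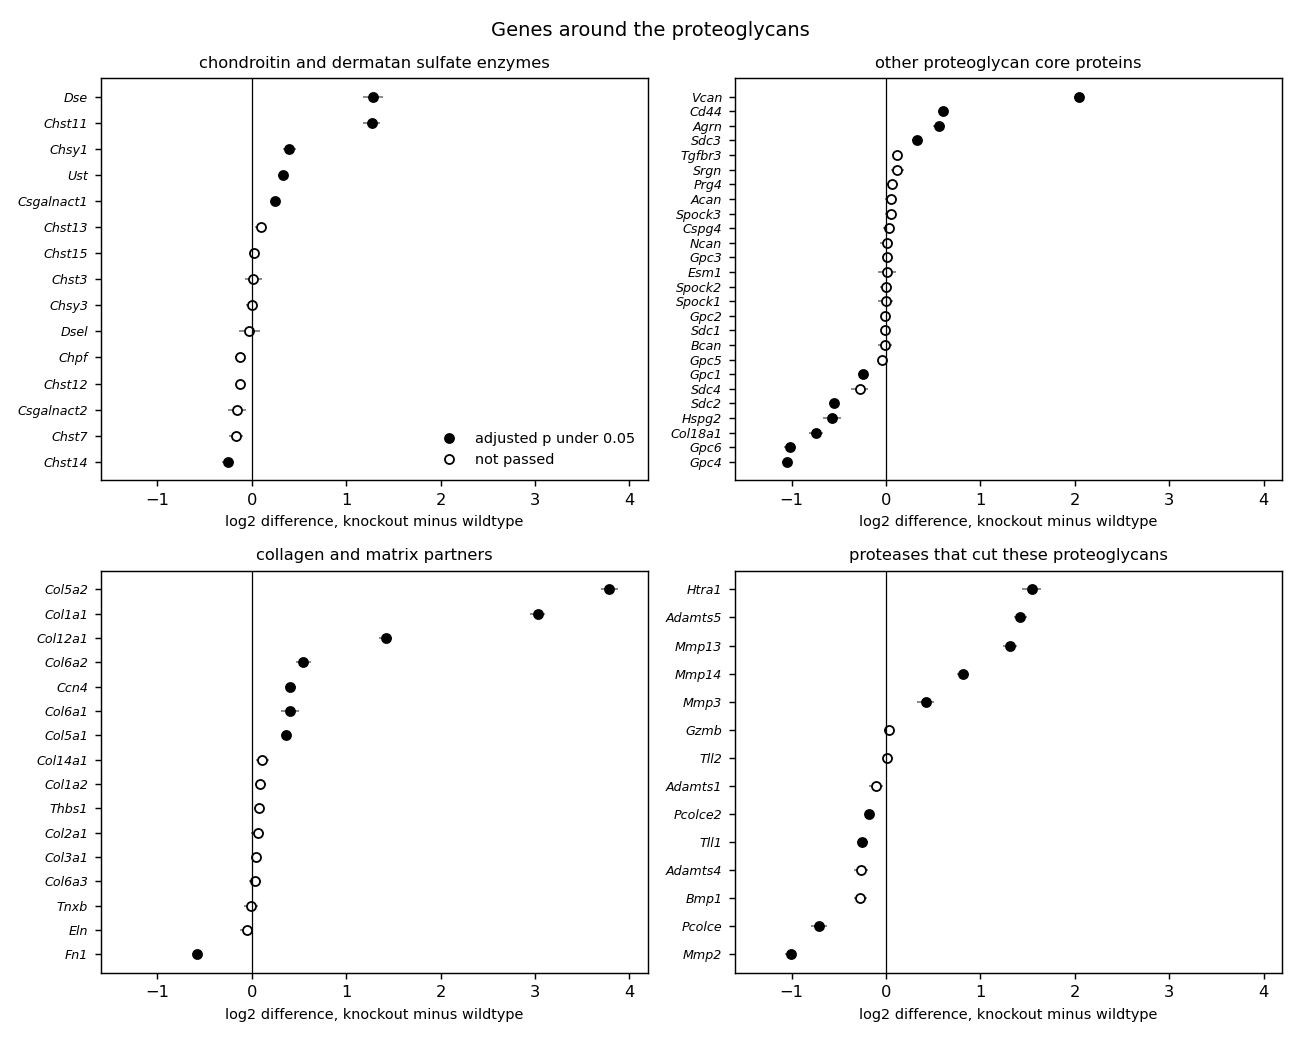
Log2 difference, knockout minus wildtype (x axis), with its limma standard error for each measured gene (y axis) of 4 lists around the proteoglycans; filled points passed an adjusted p of 0.05. Dse and Chst11 lead the chain enzymes at 1.28 and 1.27, Vcan the other core proteins at 2.04 and Col5a2 the collagen partners at 3.79; the wildtype means of Vcan and Col5a2 were within background.

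Markers of cell types were read beside these values, and their part in the proteoglycan differences was not tested. Of 8 podocyte markers, 1 rose and 0 fell, while 7 missed the threshold. The phospholipase gene Plce1 rose (3.12), with its wildtype mean within background. The nephrin gene Nphs1, Wt1 and Ptpro were within background in both lines, whereas Synpo, Podxl, Nes and Cdkn1c were above it in both. The log2 of the summed intensity of the 8 was 11.76 to 11.93 in knockout and 11.34 to 11.38 in wildtype arrays. The sums given for the other lists are of the same kind. Such a sum follows its few brightest genes and does not give the level of a whole marker list. Here Nes averaged 10.39 in knockout and 10.21 in wildtype arrays, and Plce1 9.93 and 6.81. Of 9 fibroblast markers, 2 rose and 0 fell, while 7 missed the threshold; Col1a1 and S100a4 (1.00) rose, and 6, Thy1, Dpt, Pi16 and Fap among them, were within background in both lines. The log2 of their summed intensity was 13.51 to 13.61 in knockout and 13.01 to 13.08 in wildtype arrays. The brightest, Vim, missed the threshold and averaged 12.94 in knockout and 12.81 in wildtype arrays. Of 6 mesangial and pericyte markers, 2 rose and 0 fell, while 4 missed the threshold; Acta2 (2.83) and Pdgfrb rose, and Itga8, Des, Cspg4 and Rgs5 were within background in both lines. The log2 of their summed intensity was 13.08 to 13.22 in knockout and 10.63 to 10.83 in wildtype arrays. The brightest, Acta2, averaged 12.90 in knockout and 10.07 in wildtype arrays. Of 7 endothelial markers, all within background, none passed by limma and 1 had an unadjusted p under 0.05, with sums of 9.28 to 9.30 in knockout and 9.15 to 9.34 in wildtype arrays. Tie1 and Flt1, which encode vascular receptor kinases, differed by 0.04 and 0.12. Of 5 immune markers, Cd68 rose (0.57), a call lost without any array but knockout replicate 3 (adjusted p = 0.0515 to 0.173), and 4 were within background, with sums of 9.23 to 9.52 in knockout and 8.97 to 9.14 in wildtype arrays. Of 8 tubule markers, 0 rose and 4 fell, while 4 missed the threshold. Those that fell were the water channel gene Aqp1 (-3.50), the cadherin gene Cdh16 (-1.496) and the endocytic receptor genes Cubn (-0.56, within background in both lines) and Lrp2 (-0.36). The sums were 12.31 to 12.37 in knockout and 13.82 to 13.92 in wildtype arrays, and Aqp1 averaged 9.42 in knockout and 12.92 in wildtype arrays.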

How the data were processed

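Mouse podocyte RNA was hybridised to 6 Affymetrix arrays, 3 of the knockout and 3 of the wildtype line. The authors' deposited log2 intensities came from RMA in affy 1.44.0, as the submitters' processing notes name them. RMA corrects background, quantile-normalizes and summarises by median polish. The probe definition and any filters were not given in the sources used here.

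Of 72688 probe sets, 31258 named 1 gene through the platform annotation, updated with a RefSeq table (GRCm38.p6) that also gave chromosomes and gene order. The probe sets naming several genes, 1492 in number, were left out. Where a gene had several, that of highest mean stood for it, which gave 30702 genes.

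The lines were compared with limma 3.58.1 in R 4.3.3 (lmFit and eBayes, two-sided, no covariate), with Benjamini-Hochberg adjustment over all genes and a threshold of 0.05. The fit was tried on simulated data with independent noise and 200 genes changed. It recovered 74.6% of changes of 0.5, 97.0% of changes of 1 and 100% of changes of 2. Far more genes passed in the real data, so these rates may not carry over. The members and lists were chosen with earlier results of these data known. Named genes were the members, up to 4 passing genes of a list with the largest difference, 4 flanking genes on each side and the 5 genes most like a member at least 1 apart; others are marked or missed the threshold. Alternatives were leaving out each array, a replicate block, array weights, trended robust variances, a second quantile normalization, a filter on dim genes, the mean of probe sets and a threshold of 0.01.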

Additional observations from a re-analysis of the deposited data

How the results depend on the processing

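Member differences moved by less than 1 SD of the replicates in 120 recomputed values and by more in 5. With array weights these were Lum (0.15), Ogn (-0.62) and Aspn (0.02). The others were Aspn with a second quantile normalization (-0.03) and with the chromosome median taken off (0.07). Most of the 120 could not move by 1 SD. A replicate block, trended robust variances, the filter on dim genes and the mean of probe sets leave these differences unchanged. Leaving out 1 of 3 arrays shifts them by less than 1 SD by arithmetic. Only array weights, the second quantile normalization and the chromosome median could move them further. The members past the threshold numbered 3 to 4 with 1 array left out and 3 to 6 otherwise. Dcn, Prelp and Ogn were among them in every setting run. The same contrast chose the members, so these calls describe the fit and do not test the members. Array weights gave wildtype array 3 a weight of 54.8, so calls under them are not relied on. Genes changed numbered 3669, against 10170 with array weights, 1948 at 0.01 and 2079 to 3388 with 1 array left out: 2079 without wildtype array 3, 2232 without knockout array 1 and 2311 without knockout array 2. With array weights, 2 other leucine-rich repeat genes, 4 keratan sulfate enzymes and 11 flanking genes passed. At 0.01, 1 linker, 3 chondroitin and dermatan sulfate and 1 keratan sulfate enzymes and 0 flanking genes passed. With 1 array left out these were 1 to 2, 2 to 5, 1 to 2 and 0 to 1. The causes of these differences in counts were not tested, and leaving out 1 array also makes the sample smaller. The labels state no pairing of same-numbered arrays. Deviations from the line mean correlated at 0.35, 0.28 and 0.04 between same-numbered arrays and at -0.34 to 0.05 between unlike-numbered arrays. Whether same-numbered arrays share a batch was not tested. The replicate block gave 3765 changed genes. Bmp1 passed as lower with the second quantile normalization (limma adjusted p = 0.00521), the filter on dim genes (0.0275) and without knockout replicate 3 (0.0496).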

Other observations

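Chain types outside this family were read from lists added after the data were seen. Of 15 genes for hyaluronan synthesis, breakdown and link proteins, 2 rose and 0 fell, while 13 missed the threshold, with a median difference of 0.03. Has2, a hyaluronan synthase gene, was at 9.58, 9.80 and 9.64 in knockout arrays, against 7.80, 7.92 and 7.89 in wildtype arrays, without overlap (difference 1.80, SE 0.07, limma adjusted p = 4.08e-05). Cemip, whose product takes part in hyaluronan breakdown, rose by 0.63 (SE 0.06, limma adjusted p = 0.0017).

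Of 23 heparan sulfate chain enzymes, 2 rose and 1 fell, while 20 missed the threshold, with a median of -0.01. The exostosin-like gene Extl3 rose by 0.97 (SE 0.09) and the polymerase gene Ext1 by 0.32 (SE 0.05), and the 3-O-sulfotransferase gene Hs3st1 fell by 0.23 (SE 0.04). Ext1 lost its call without knockout replicate 1 or wildtype replicate 3 (adjusted p = 0.0517 to 0.0553), and Hs3st1 without any knockout replicate or wildtype replicate 3 (adjusted p = 0.0555 to 0.0803).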
